A study of Mus musculus with 20 samples.

Results

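Mouse embryonic stem (ES) cells kept without tamoxifen for 1 day after plating were compared with the same cells at day 0, on 4 of the 20 arrays, each with a sample and a reference dye, of the series. The members are the 2 arrays labelled Day0 and the 2 labelled Day1 Tmx-, found by their titles. The cells were V6.5, a hybrid of C57BL/6 and 129/Sv, carrying pCAG-Zscan4-ERT2, a Zscan4 coding sequence fused to the ERT2 hormone-binding domain under the constitutive CAG promoter, and all arrays came from 1 clone (ES_ZERT #18). In both groups the fusion gene was present and tamoxifen was absent (0 nM). The cells grew as a monolayer on gelatin in ES medium with LIF. The other 8 groups of 2 arrays were untreated cells on day 2 (Day2 Tmx--) and cells given 200 nM tamoxifen for some or all of days 1 to 4. Each array carried sample RNA in Cy3 and a common reference in Cy5, a pool of mouse cell line RNA mixed with RNA of 129 ES cells. Values are log2 of sample over reference. Whether replicate arrays stand for separate cultures is not stated, and the p-values then measure only the spread between arrays, which may be technical.

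ES cells are derived from the inner cell mass of the blastocyst and renew themselves while LIF signals through its receptor. Passaging detaches them, and after plating they reattach, spread and resume division in fresh medium. Zscan4 is a zinc finger gene that marks a small, transient fraction of ES cells resembling the 2-cell embryo. An ERT2 fusion protein is held in the cytoplasm until tamoxifen binds it, so untreated cells serve as the baseline for the induced gene.

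In 29414 probes tested, 5753 were higher and 7121 lower on untreated day 1 than on day 0, which is 19.6% and 24.2% of the probes. Most of these differences were small: the median change was 0.32 among the probes called higher and -0.34 among those called lower, on the log2 scale. A 2-fold rise was reached by 127 probes (0.432%) and a 2-fold fall by 192 (0.653%). The threshold was an adjusted p of 0.05 from limma with Benjamini-Hochberg adjustment, fitted over all 20 arrays. When only the 4 arrays entered the fit, 8040 probes were called in place of 12874 (43.8%). The spread shared over 20 arrays may be too narrow for this comparison, since untreated day 1 replicates were the least alike of all groups. The p-values may then be too small. With the local backgrounds as the scanner files give them, 9365 were called (31.8%). The 2-fold counts were 135 and 200 with no background correction, and 256 and 224 with those backgrounds as given. They were 533 and 717 with Agilent's processed signals, and 369 and 455 with the deposited value table, which holds 18098 of the tested probes; these also differ in normalisation, and the cause was not tested.

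The array files identify probes by number and sequence, with no gene name and no mapped position, so the probes with the largest changes are shown by the RNA sequence they were designed to read. The 5 probes with the largest rises carry these bases, with a polyadenylation signal (AATAAA) in capitals where one is present and that probe cut to 30 bases around it.
Z00049363-1: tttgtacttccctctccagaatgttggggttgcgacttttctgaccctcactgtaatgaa
Z00041311-1: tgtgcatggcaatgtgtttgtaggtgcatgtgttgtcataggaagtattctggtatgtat
Z00074099-1: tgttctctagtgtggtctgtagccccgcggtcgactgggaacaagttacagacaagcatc
Z00049314-1: tttccagatgttgtcaaagattAATAAAgg
Z00042638-1: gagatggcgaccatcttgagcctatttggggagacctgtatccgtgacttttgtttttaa

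The 5 probes with the largest falls carry the following bases, none with that signal.
Z00074958-1: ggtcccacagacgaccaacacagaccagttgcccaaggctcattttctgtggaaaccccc
Z00034384-1: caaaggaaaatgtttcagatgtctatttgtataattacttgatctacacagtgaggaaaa
Z00000952-1: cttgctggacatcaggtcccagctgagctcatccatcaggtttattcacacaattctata
Z00020267-1: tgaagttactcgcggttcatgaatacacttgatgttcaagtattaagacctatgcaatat
Z00027126-1: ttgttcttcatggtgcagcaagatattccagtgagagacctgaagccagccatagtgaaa

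Probe Z00049363-1 read -0.67 and -0.64 on the day 0 arrays and 1.56 and 1.93 on the untreated day 1 arrays. The normalised ratio thus went from negative to positive. The sign depends on the normalisation, so it does not show which RNA was more abundant. The rise was 2.40 ± 0.13 (log2, SE, n = 2 arrays a group, adjusted p = 5.5e-10), or 5.27-fold. Probe Z00041311-1 rose from -0.58 and -0.59 to 1.17 and 1.35, a change of 1.84 ± 0.09 (adjusted p = 4.4e-10). In Z00074099-1 the values went from -0.36 and -0.62 to 1.22 and 1.46, a change of 1.83 ± 0.12 (adjusted p = 5.8e-09). These rises exceeded the gap between replicate arrays several times over. The AATAAA probe Z00049314-1 stood at 0.20 and 0.12 on day 0 and at 1.75 and 2.18 on day 1, a change of 1.81 ± 0.13 (adjusted p = 1.4e-08). Z00042638-1 went from -0.99 and -0.87 to 0.67 and 1.01, a change of 1.77 ± 0.12 (adjusted p = 6.4e-09). In all 5 the second day 1 array read higher than the first, and the day 0 and day 1 arrays did not overlap.

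The rises parted ways on the other day 1 and day 2 arrays. With tamoxifen on day 1, Z00074099-1 read 1.64 and 1.61, above its untreated day 1 values, and Z00042638-1 read 0.68 and 0.62, near the lower of its own. Z00041311-1 read only -0.23 and -0.35 there, a value close to day 0, with a change from day 0 of 0.29 (adjusted p = 0.018) against 1.84 without tamoxifen; the difference between these changes was not tested. On slide 2, where tamoxifen day 1 and untreated day 2 arrays lay together, this probe was lower on day 1 (log2 difference -0.38, adjusted p = 0.0032). By untreated day 2, Z00049363-1 had values of 0.55 and 0.05, between its day 0 and day 1 values, and Z00042638-1 was back at -0.58 and -0.92.

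The largest fall was in Z00074958-1, which read 3.07 and 2.84 on day 0 and 0.69 and 0.72 on untreated day 1. The fall was 4.75-fold (log2 change -2.25 ± 0.09, adjusted p = 6.7e-11). Z00000952-1 had a similar course, from 3.25 and 3.07 to 1.34 and 1.45 (change -1.77 ± 0.08, adjusted p = 2.2e-10). In both, the normalised ratio stayed positive on every one of the 4 arrays. Z00034384-1 fell from -0.44 and -0.72 to -2.47 and -2.32 (change -1.82 ± 0.08, adjusted p = 2.2e-10). Z00020267-1, the brightest of these 10 probes, fell from -0.53 and -0.57 to -2.30 and -2.28 (change -1.74 ± 0.07, adjusted p = 6.7e-11). Z00027126-1 went from 1.62 and 1.44 to -0.19 and -0.18 (change -1.71 ± 0.10, adjusted p = 1.2e-09). The replicates of these falls lay close together on day 1, and no day 1 value reached a day 0 value.

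By day 2 these probes lay nearer to day 0 or above it. Z00074958-1 read 2.60 and 2.75 on the untreated day 2 arrays and was still called lower than on day 0 (change -0.28, adjusted p = 0.045). Z00000952-1 read 3.14 and 3.33 and Z00034384-1 read -0.43 and -0.30, with changes from day 0 of 0.08 (adjusted p = 0.62) and 0.22 (adjusted p = 0.11). Z00020267-1 and Z00027126-1 were above day 0 on day 2, by 0.55 (adjusted p = 6.3e-05) and 0.51 (adjusted p = 0.0026). With tamoxifen, day 1 arrays showed the low values again, for example 0.88 and 0.82 for Z00074958-1 and -2.95 and -2.96 for Z00034384-1. The 25 largest falls ran from -2.25 to -1.41 and the 25 largest rises from 2.40 to 1.33. All 25 of these falls and 19 of these rises were also called in the same direction between tamoxifen day 1 and untreated day 2 on slide 2. Over all tested probes, dim ones included, 20.5% were called lower and 19.3% higher there. These falls and rises were chosen among bright probes only.

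**Figure D1:**
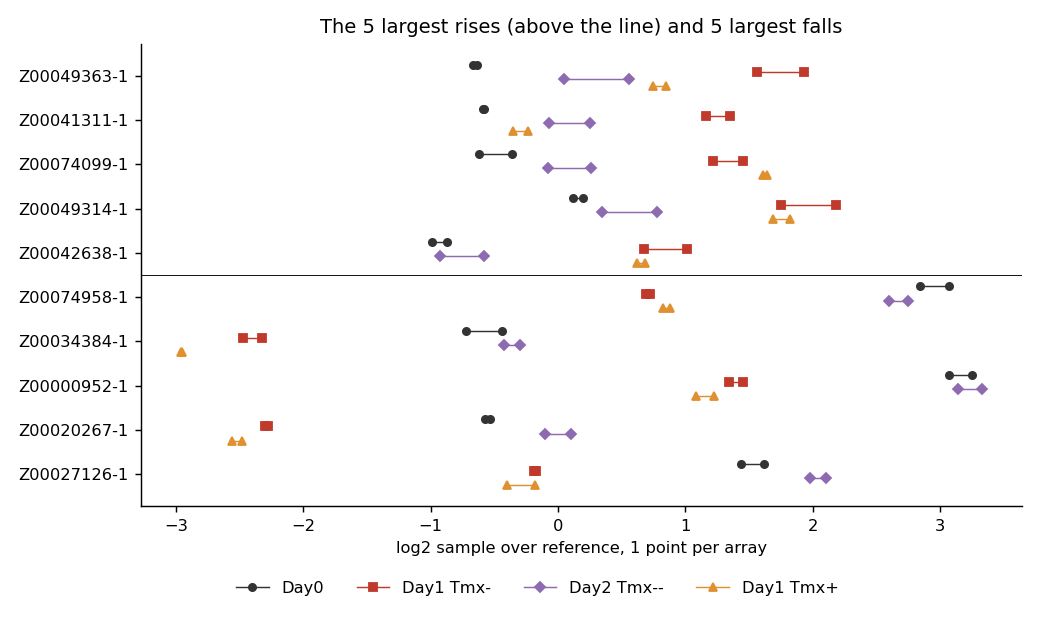
Log2 of sample over reference (horizontal axis) for the 5 probes with the largest rises and the 5 with the largest falls, with 1 point per array and a line joining the 2 arrays of a group. Untreated day 1 (squares) lies apart from day 0 (circles) in each probe; untreated day 2 (diamonds) lies near or above day 0 in the 5 falls, and tamoxifen day 1 (triangles) lies with untreated day 1 except in the rises Z00041311-1 and Z00049363-1.

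Sizes fell off quickly beyond these probes. A change of at least 1.5-fold was reached by 752 probes called higher and 1170 called lower, and one of 3-fold by 7 and 8. Only Z00049363-1 and Z00074958-1 passed 4-fold. The day 0 and day 1 arrays did not overlap in 18750 of 29399 probes with all 4 values, a background of 63.8%. The share of probes called grew with signal, from 14.0% and 34.6% in the 2 dimmest of 5 equal classes to 55.5%, 57.8% and 56.9% in the 3 brightest.

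The change lay in the sample channel. Taken alone, the reference channel, which held the same RNA on every array, gave 39 called probes (0.133%), and its log2 difference between the day 1 and day 0 arrays had a standard deviation of 0.10 over probes, against 0.31 for the ratio. The sample channel alone gave 12177 called probes (41.4%), 6074 higher and 6103 lower (20.7% each). Probes called higher by ratio had a median of 0.34 in the sample channel and 0.01 in the reference channel. Those called lower had -0.32 and -0.02. The count in the reference channel rose to 476 without the first day 0 array and to 630 without the second, and was 0 when only the 4 arrays were fitted.

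**Figure D2:**
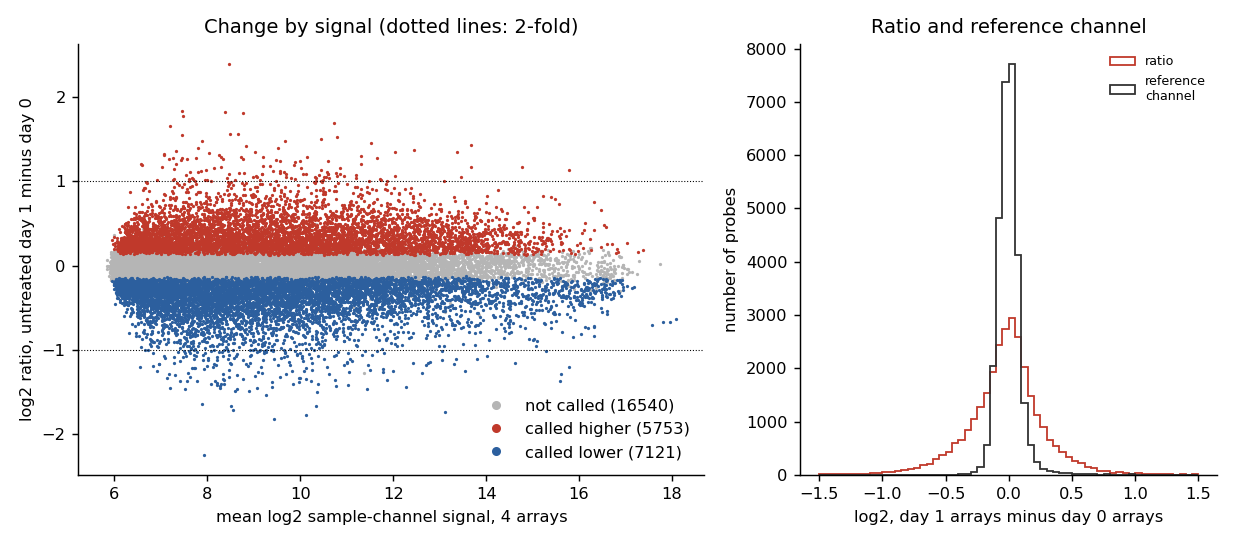
Left: log2 ratio on untreated day 1 minus day 0 (vertical axis) against mean log2 sample signal (horizontal axis), 1 point per probe, red for the 5753 called higher, blue for the 7121 called lower and grey, drawn beneath, for the rest. Right: numbers of probes by log2 difference between day 1 and day 0 arrays (values beyond 1.5 are placed in the end bins); the reference channel is the narrow curve (SD 0.10) and the ratio the wide one (SD 0.31).

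Both groups were hybridised on 1 slide, with day 0 at positions 1 and 2 and untreated day 1 at positions 3 and 4, so position and group cannot be told apart within it. The arrays detected 26199 to 28064 of 42006 probes well above background, fewest on the first day 0 array. The first untreated day 1 array had 6 spots with extreme local background in both channels, up to 65209 in the sample channel, and 5 saturated probes, where the other arrays had 0. The untreated day 1 replicates were the least alike of all 10 groups (r = 0.9845 across probes, SD of their difference 0.18; the other groups, 0.0909 to 0.125). Day 0 replicates correlated at 0.9925. Between day 0 and untreated day 1 the correlation of arrays was 0.9428 to 0.9535, below that of either replicate pair. Untreated day 2 arrays correlated with day 0 at 0.9822 to 0.985.

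Fewer probes differed from day 0 on untreated day 2 than on untreated day 1. Both comparisons given next set arrays of slide 2 against day 0 on slide 1. Slide and group cannot be told apart in them. Untreated day 2 minus day 0 gave 2954 called probes (10%), 1302 higher (4.43%) and 1652 lower (5.62%). Tamoxifen-treated day 1 minus day 0 gave 13181 (44.8%), 6147 higher (20.9%) and 7034 lower (23.9%). These comparisons share the day 0 arrays with the one described here, so their values are set side by side with no test of likeness. The probes called higher on untreated day 1 had a median of 0.32 there, of 0.28 on day 1 with tamoxifen and of 0.08 on untreated day 2, relative to day 0. Those called lower had -0.34, -0.29 and -0.09. The medians over all probes tested lay between -0.01 and 0.00 in these comparisons. The count for day 2 was 1250 without the second day 0 array, 620 with the backgrounds as given and 1780 with median centring.

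Over the whole series, the probes called higher on untreated day 1 had array medians of 0.29 and 0.36 on the untreated day 1 arrays and 0.29 and 0.27 on the tamoxifen day 1 arrays. They lay between 0.05 and 0.10 on the 6 day 2 arrays and between 0.01 and 0.03 on the 4 day 3 arrays. On the 4 day 4 arrays they lay below day 0, from -0.15 to -0.12. The probes called lower mirrored this, at -0.33 and -0.36 on untreated day 1 and between 0.20 and 0.25 on day 4. All-probe medians stayed within -0.01 and 0.04 on every array. After day 2 every array had received tamoxifen and each day lay on a slide of its own, so day and slide cannot be told apart there. The 2-fold risers had medians of 1.09 and 1.23 on untreated day 1 and -0.635 to -0.452 on day 4.

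**Figure D3:**
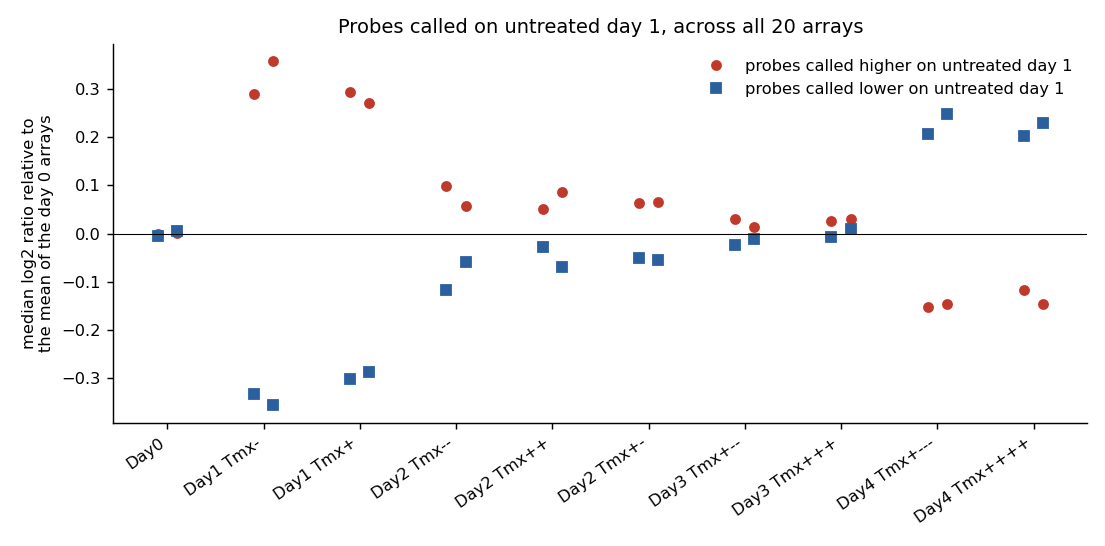
Median log2 ratio relative to the mean of the day 0 arrays (vertical axis) for probes called higher (circles) and lower (squares) on untreated day 1, on each of the 20 arrays by group. The day 0 and untreated day 1 values are fixed by how the probes were chosen; tamoxifen day 1 lies at 0.27 to 0.29 and -0.30 to -0.29, day 2 and day 3 lie nearer 0, and the signs are reversed on day 4.

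Slide 2 gives a comparison of day 1 cells that shares no array with these 4, chosen after its values were seen. It sets tamoxifen day 1 at positions 1 and 2 against untreated day 2 at positions 3 and 4, so the day 1 cells lie where day 0 lay on slide 1, and day differs together with tamoxifen. There 11694 probes were called (39.8%), 5669 higher (19.3% of all tested probes) and 6025 lower (20.5%) on day 1. Of the probes higher on untreated day 1 than day 0, 3187 were higher on slide 2 as well, 55.4% of the first list and 56.2% of the second. Of the probes lower, 3830 were lower on slide 2, 53.8% and 63.6%. Opposite calls were found for 328 and 334 probes. Among the 127 probes with 2-fold rises, 105 were higher on slide 2 and 7 lower, and among the 192 with 2-fold falls, 177 were lower and 5 higher. Their slide 2 medians were 0.67 and -1.02, against 0.00 for all probes.

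Probes were also grouped by their normalised ratio of sample over reference on the untreated day 2 arrays, which are not among the 4. Of 1826 probes at least 2-fold above the reference on both of those arrays, 485 were higher and 669 lower on untreated day 1, that is 26.6% and 36.6%. Of 3494 probes at least 2-fold below it, 531 were higher and 1187 lower, 15.2% and 34.0%. The other 24094 probes had 19.7% and 21.9%. The medians of the change were -0.05, -0.07 and 0.00. With the backgrounds as the scanner files give them, the median was -0.41 for the probes above the reference and 0.51, the opposite sign, for those below it. The usual ES cell markers could not be checked, because no probe could be tied to them.

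Few probes went from undetected to detected. Of all 42006 probes, 25557 (60.8%) were well above background on all 4 arrays and 12896 on none. On both day 1 arrays and neither day 0 array, 495 were, of which 139 were called higher. The reverse held for 142, of which 89 were called lower. Over all probes tested 19.6% were called higher and 24.2% lower, and nothing is read from these counts, since detection in 1 group only already sets the direction. By sample signal, Z00004134-1 was 2.2-fold higher on day 1 (adjusted p of its ratio = 3.6e-08). Z00076736-1 was 2.16-fold higher on day 0 (adjusted p of its ratio = 7.8e-08). A bound sets the bright group's mean against the higher, on each array, of the probe's own signal and the lowest signal that counted as well above background. In both of these probes the own signal was the higher, so these folds are measured differences. No other bound in these sets reached 2-fold.

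Probes that share sequence read the same or closely related transcripts, and give a repeat of the measurement from other spots of the same arrays. In all, 1046 pairs of tested probes (1654 probes) shared a run of 24 or more identical bases. Their changes correlated at r = 0.953 and rho = 0.937, given as a description because the pairs share arrays and sequence. The median difference within a pair was 0.04 on the log2 scale, and 95% of pairs differed by less than 0.21. Both probes were called in 459 pairs, in the same direction in all 459. A single probe was called in 175 pairs and neither in 412. In the 20 pairs with all 60 bases in common, the median difference was 0.03 and the largest 0.32.

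**Figure D4:**
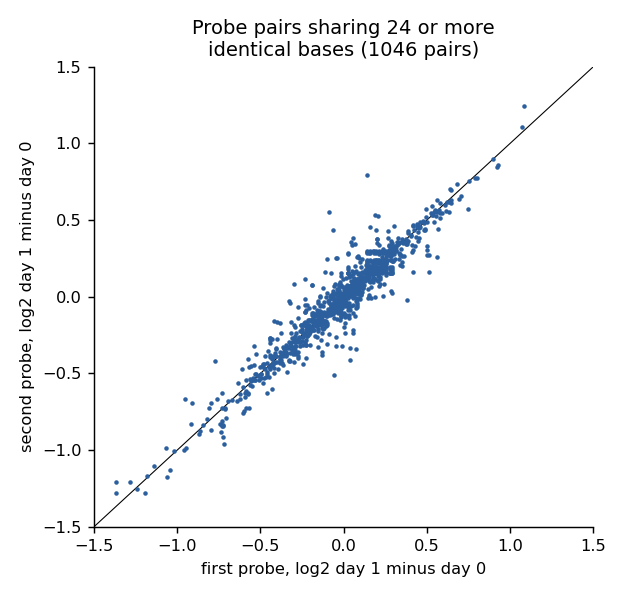
Log2 change on untreated day 1 of one probe (horizontal axis) against that of its partner (vertical axis) for 1046 pairs sharing 24 or more identical bases; the line marks equal values. The points follow the line (r = 0.953), and 95% of pairs differ by less than 0.21.

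In 12 pairs both probes moved at least 2-fold. Some are printed here with the shared run in capitals, chosen after their values were seen. A trio fell and shares 30 bases.
Z00006345-1: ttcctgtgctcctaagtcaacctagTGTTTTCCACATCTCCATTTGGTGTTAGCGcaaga
Z00030491-1: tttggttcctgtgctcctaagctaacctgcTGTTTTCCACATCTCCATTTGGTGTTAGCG
Z00032620-1: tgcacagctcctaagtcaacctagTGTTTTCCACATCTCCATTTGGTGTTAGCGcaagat
The 3 probes fell by 1.37, 1.28 and 1.21 on the log2 scale. On day 0 they read between -0.61 and -0.28 and on untreated day 1 between -1.83 and -1.66, with no overlap.

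A second pair fell and differs at several bases around its shared run.
Z00027205-1: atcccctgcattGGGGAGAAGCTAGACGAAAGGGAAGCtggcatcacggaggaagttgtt
Z00060656-1: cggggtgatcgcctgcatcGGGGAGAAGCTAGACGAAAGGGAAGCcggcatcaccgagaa
Z00027205-1 read -0.18 and -0.12 on day 0 and -1.12 and -1.31 on day 1 (change -1.06 ± 0.07, adjusted p = 3.7e-09). Z00060656-1 read -0.24 and -0.17, then -1.26 and -1.52 (change -1.18 ± 0.09, adjusted p = 1.4e-08).

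The pairs that rose at least 2-fold were these.
Z00024218-1: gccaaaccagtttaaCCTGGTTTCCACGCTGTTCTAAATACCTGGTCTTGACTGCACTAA
Z00074635-1: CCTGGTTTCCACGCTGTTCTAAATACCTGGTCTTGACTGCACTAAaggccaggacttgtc
Z00073880-1: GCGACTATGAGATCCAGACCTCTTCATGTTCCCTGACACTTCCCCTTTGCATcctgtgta
Z00076813-1: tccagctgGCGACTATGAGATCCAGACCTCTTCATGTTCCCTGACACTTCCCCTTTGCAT
Z00024218-1 rose from -0.55 and -0.49 to 0.44 and 0.67 (change 1.07 ± 0.07, adjusted p = 1.0e-08), and its partner by 1.11. The first read -0.08 and -0.16 on day 1 with tamoxifen. Z00073880-1 rose from 0.84 and 0.76 to 1.84 and 1.93 (change 1.08 ± 0.06, adjusted p = 1.7e-09), and its partner by 1.24. This pair stayed high with tamoxifen, at 1.46 and 1.41 in the first probe.

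In some larger families linked by such runs every probe moved the same way. The 5 probes named after Z00030367-1 all fell, by a median of 0.81 on the log2 scale, and 4 of them hold the run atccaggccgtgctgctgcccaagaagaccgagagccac. They were back at day 0 levels on untreated day 2 (median change -0.01) and low on day 1 with tamoxifen (-0.66). The 6 probes of the Z00026195-1 family also all fell, by a median of 0.52, and 3 of them hold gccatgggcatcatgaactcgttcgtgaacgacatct. Both families read lower on the second day 1 array than on the first in every probe. Among rising families, the 5 probes of Z00010132-1 were all called, with a median of 0.23, and so were the 4 of Z00027168-1, with a median of 0.32. In the latter the first day 1 array read higher than the second in every probe, at 1.21 and 0.81 in Z00027168-1 against 0.39 and 0.62 on day 0. In Z00070826-1 and Z00072239-1 the second day 1 array, at 0.35 and 0.39, lay within the day 0 values of 0.17 and 0.39 and of 0.19 and 0.43, so 1 array carried those rises. The largest family, of 21 probes around Z00031084-1, had 12 called higher, 0 lower, and a median of 0.21. Over all probes tested 19.6% were called higher and 24.2% lower. Members of a family share sequence and are not separate observations.

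The 4 probes of the Z00030887-1 family fell on untreated day 1 by a median of 0.22 but stood above day 0 with tamoxifen, at a median of 0.20. Z00031023-1 of this family read 0.95 and 0.82 on day 0, 0.62 and 0.64 on untreated day 1, and 1.01 and 1.14 on day 1 with tamoxifen. The adjusted p was 0.0036 without tamoxifen and 0.026 with it, each against day 0, and the difference between the day 1 groups was not tested. Some other families were called in part. Of the 8 probes around Z00006641-1, 7 were called lower (median -0.355), where 24.2% of all probes were. Others had no called probe, among them the 6 probes around Z00027125-1 (median -0.02) and the 8 around Z00025464-1 (median -0.13).

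Gene names could be attached to few probes. RefSeq start windows (build GRCm38.p6), from 250 bases before to 50 bases after the annotated start of each gene, were searched for the full 60 bases of each tested probe. In the gene's own direction 92 probes lay in the window of a single gene. Of these, 30 reached past the start and 62 lay wholly before it. A probe before the start does not lie in the annotated transcript, so the gene's name marks a position, and the RNA read there may belong to another start or another gene. Of the 92, 18 were called higher and 11 lower, where 19.6% and 24.2% of all probes were called. Of the genes in lists drawn up for this comparison only Rpl38, Hspd1 and Cox6b2 were reached, so pathways could not be described.

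Among probes that reached past a start, those of Fau and Tpt1 rose and 1 of Rpl38 fell. Fau encodes a ubiquitin-like protein joined to a ribosomal protein, and its probe (chr19:6057909-6057968) read 0.01 and 0.04 on day 0 and 0.24 and 0.31 on untreated day 1. The change was 0.25 ± 0.06 (adjusted p = 0.0015), and 1 of the alternative settings ended that call. The same bases lie in the window of Mrpl49 on the other strand. Tpt1, the translationally controlled tumour protein, had a probe at chr14:75845205-75845264 that read -0.79 and -0.81, then -0.63 and -0.52 (change 0.23 ± 0.09, adjusted p = 0.043). The call for Tpt1 was lost in 7 of the alternative settings, with adjusted p up to 0.23.

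Rpl38, a protein of the large ribosomal subunit, had a pair of overlapping probes that differed in their calls. The probe at chr11:114668538-114668597 read 0.42 and 0.45 on day 0 and 0.27 and 0.15 on day 1 (change -0.23 ± 0.06, adjusted p = 0.0036). Its call was lost in 1 setting. The one at chr11:114668526-114668585 read 0.82 and 0.92, then 0.78 and 0.80 (change -0.08 ± 0.06, adjusted p = 0.27). The fall at Leng1 (chr7:3665794-3665853) was -0.20 ± 0.07 (adjusted p = 0.019), and 4 settings ended that call. Probes over the starts of Gm4718 and Gm52042 fell by 0.26 each. These calls were lost in 6 settings and 1 setting, with a change of sign in 1 setting for either probe. Gm11295 read 1.76 and 1.90 on day 0 and 1.73 and 1.22 on day 1, so 1 array carried its fall. Its change of -0.35 ± 0.12 (adjusted p = 0.027) was -0.10 (adjusted p = 0.51) without the second day 1 array.

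Among probes before a start, the rise at Iqcc was the largest. The probe lies at chr4:129619274-129619333, -240 to -181 bases from the start, and read 0.22 and 0.37 on day 0 and 1.098 and 1.32 on untreated day 1 (change 0.91 ± 0.07, adjusted p = 2.6e-08). It stayed at 1.11 and 1.02 with tamoxifen. The probe before Wdr6, a WD-repeat protein, rose by 0.73 ± 0.09 (adjusted p = 6.0e-06) from 0.97 and 0.83 to 1.45 and 1.81. That rise was 0.12 (adjusted p = 0.82) with the backgrounds as given. The probe before Uckl1, a uridine and cytidine kinase-like protein, rose from -0.20 and -0.36 to 0.17 and 0.36 (change 0.55 ± 0.07, adjusted p = 5.3e-06). Those before Tubgcp6 (gamma-tubulin complex), Vars2 (mitochondrial valyl-tRNA synthetase), Tapbp (tapasin, in antigen loading), Nedd8 (a ubiquitin-like modifier) and Slc39a5 (a zinc transporter) rose by 0.46, 0.37, 0.32, 0.27 and 0.27. The rise before Nedd8 was 0.0022 (adjusted p = 0.99) with the backgrounds as given. Smaller rises stood before Rsph6a (0.24) and Rskr (0.22), whose calls were lost in 4 and 3 of the alternative settings. Another probe before Rsph6a, -225 to -166 bases from the start, was not called (change 0.09, adjusted p = 0.38).

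The falls before a start were led by the predicted gene Gm39668, from -0.17 and -0.16 to -0.83 and -0.83 (change -0.67 ± 0.07, adjusted p = 4.8e-07). The probe before Naa10, the catalytic subunit of an N-terminal acetyltransferase, fell from 0.17 and 0.03 to -0.41 and -0.33 (change -0.47 ± 0.06, adjusted p = 3.7e-06). The probe before Fthl17d, a ferritin heavy chain-like gene, fell from 0.72 and 0.73 to 0.30 and 0.28 (change -0.43 ± 0.09, adjusted p = 0.00051). The probe before Trex1, a DNA exonuclease, fell from -0.02 and 0.04 to -0.29 and -0.27 (change -0.29 ± 0.05, adjusted p = 0.00018). Pdia2, a protein disulphide isomerase, had a fall of -0.26 ± 0.05 in the probe before it, and 1 setting ended that call. A fall of -0.23 before Gm46074 lost its call in 5 settings, in 1 of them with a change of sign. The probe before Hspd1, the mitochondrial chaperonin, read 0.51 and 0.70, then 0.40 and 0.37, and missed the threshold (adjusted p = 0.052). The one before Cox6b2 changed by 0.06 ± 0.10 (adjusted p = 0.63).

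**Figure D5:**
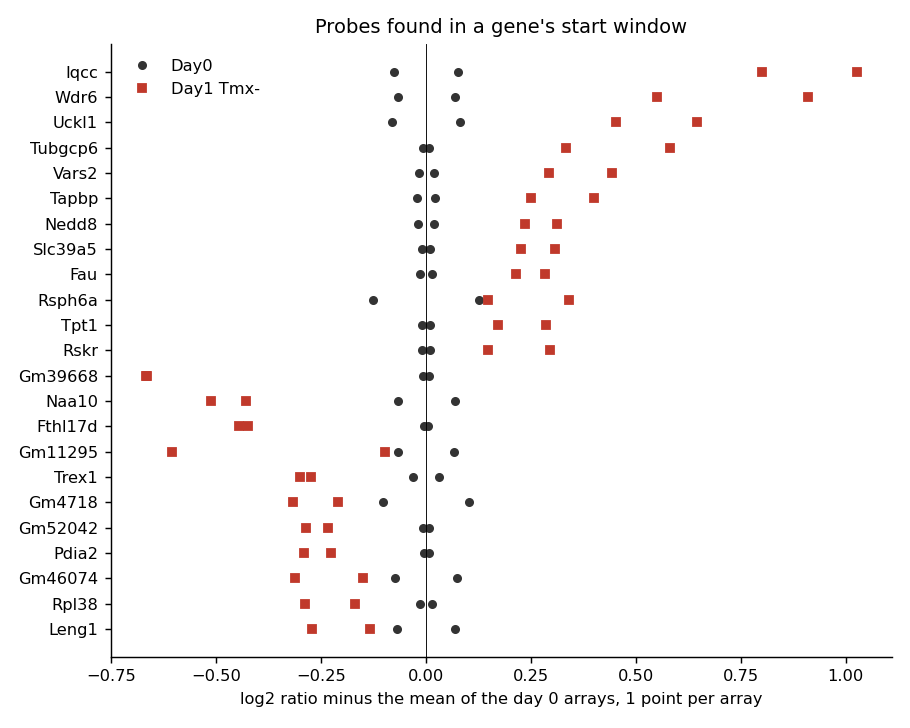
Log2 ratio minus the mean of the day 0 arrays (horizontal axis), 1 point per array, for 23 called probes found in a gene's start window, labelled by that gene. Day 1 squares lie clear of the day 0 circles by the widest margin at Iqcc and Gm39668, and by little at Rsph6a, Gm11295 and Leng1.

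Base composition moved with the calls. Of probes with 9 to 22 G or C bases of 60, 51.5% were called, and of those with 33 to 52, 33.7%. In the dimmest of the 5 signal classes the shares were 20.6% and 8.04% for the low and high ends, and in the brightest class 57.5% and 55.8%. The polyadenylation signal AATAAA stood in the probe's own strand in 7.5% of all tested probes, in 10.5% of those called higher and in 7.48% of those called lower. It stood in 11.8% of the probes with 2-fold rises and in 10.4% of those with 2-fold falls. Its variant ATTAAA stood in 3.24%, 4.55% and 3.23%. On the opposite strand AATAAA was present in 3.06% of all probes. The ATTTA element was present in 6.93% of all probes and in 7.61% and 7.53% of those called higher and lower. These shares are descriptions of the printed letters, and their part in the result was not tested.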

How the data were processed

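Per the file headers, Agilent mouse arrays were scanned and read by Feature Extraction (version 9.5.1.1). The deposited scanner files give a mean and a local background intensity per spot and dye, and a log10 ratio of red over green. A deposited value table gives log10 values that follow the processed sample signal (correlation 0.9935 to 0.9973 across probes, column medians 2.305 to 2.336). Its centring was not given in the sources used here.

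From these, local backgrounds over 10 times an array's median were set to that median, intensities were corrected with normexp (offset 50) and ratios were normalised with loess within each array (limma 3.58.1, R 4.3.3). Log2 of green over red was averaged per probe over 42006 probes (control spots left out, outlier spots missing, 91 values in all). Probes well above background on both arrays of any group were tested (29414). A model with the 10 groups was fitted to all 20 arrays (10 residual degrees of freedom), with Benjamini-Hochberg adjustment. No dyes were swapped, so a dye effect remains in levels and cancels in differences between arrays. The number of arrays limits precision.

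The probes and lists were chosen with earlier results of these data known. Probes named by number are the 5 largest rises and 5 largest falls among called, non-overlapping probes that were bright and unsaturated on all 4 arrays. Genes named are the 12 largest rises and the 11 falls that passed the same criteria among probes in start windows, 1 a gene, plus list members. The gene lists and ES cell markers could not be applied further, because the files pair no probe with a gene. The pairs and families of probes were chosen after their values were seen. The fit was tested on simulated data with 200 changed probes. Each probe had the same spread in every group there, so this cannot show whether the shared spread is too narrow. Slide, replicate number, background, normalisation and filter alternatives are in the closing section.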

Additional observations from a re-analysis of the deposited data

How the results depend on the processing

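All 10 probes with the largest changes kept their direction and their call in 150 of 150 alternative values. Of the 23 start window probes, 10 kept their call throughout (6 higher, 4 lower). Over these probes 297 of 338 values kept direction and call, 38 kept the direction only and 3 changed sign: Gm52042 (0.015) and Gm46074 (0.024) with the scanner's local backgrounds, and Gm4718 (0.17) with the sample channel alone. The main fit had already replaced the extreme local backgrounds by the array median. Setting those spots to missing as well changed no count, which cannot show that the spots are without effect. Left in as given, these backgrounds moved several counts, listed next.

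When local backgrounds were used as given, 9365 probes were called in place of 12874, 4631 higher and 4734 lower. Of these, 256 were 2-fold higher. Between untreated day 2 and day 0, 620 were called in place of 2954. The medians of probes above and below the reference became -0.41 and 0.51. Agilent's processed signals gave 533 and 717 probes at 2-fold, and the deposited value table, which holds 18098 of the tested probes, gave 4634 called lower and 369 and 455 at 2-fold. Median centring gave 1780 calls for day 2. With only the 4 arrays fitted, 8040 were called (3431 higher, 4609 lower), 6718 in the sample channel and 0 in the reference channel. That fit has fewer degrees of freedom and its own estimate of the spread. The untreated day 1 replicates differed most of the 10 groups (SD of their difference 0.18), so the shared spread may be too narrow here. The cause of these moves was not tested.

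Leaving out 1 of the 4 arrays gave 10751 to 13016 calls, 33 to 630 in the reference channel and 1250 to 4122 for day 2. The replicate block gave 12928 calls. Same-numbered arrays of day 0 and untreated day 1 had deviations correlating at -0.0002478, and -0.2878 to 0.284 over all pairs of groups. With 1 deviation a group, this cannot show whether the replicate numbers pair the arrays. A slide block could not be fitted, since each of the groups lies on 1 slide only. Depth is not defined for arrays. In the dimmest of 5 signal classes 14.0% were called, and the part of signal over background in this was not tested.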
